A study of Mus musculus with 6 samples.

Results

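The angiopoietin and Tie genes of the mouse aorta were described across RNA sequencing libraries of mice given erythropoietin or saline. The members were 8 named genes: the ligands Angpt1, Angpt2 and Angpt4, the receptors Tek (Tie2) and Tie1, the receptor phosphatase Ptprb, and the angiopoietin-like genes Angptl2 and Angptl4. They were found by symbol among the 47643 genes of the count table, and all 8 passed the filter on low counts that left 16522 genes for testing. Both groups were Apoe-/- mice, which lack the lipid-carrying apolipoprotein E. Recombinant human EPO, the hormone of red cell production, was injected into the peritoneum of the EPO group for 4 weeks at a daily dose of 5000 IU per kg. Saline was injected likewise for 4 weeks in the Vehicle group, and each group had 3 libraries made from the entire aorta. The labels give no age or sex, name no cell sorting, and leave unstated whether the libraries are separate animals; the p-values rest on how far these 6 libraries scatter, which may be technical. The title of the series names abdominal aortic aneurysm, new vessel formation and inflammatory infiltration, and 1 comparison follows from the design, EPO against Vehicle.

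Angiopoietins are secreted ligands of the receptor tyrosine kinase Tek, which sits mainly on endothelial cells. Angpt1, made by mural and other mesenchymal cells, activates Tek and stabilises vessels, while Angpt2, stored and released by endothelium, acts as a context-dependent antagonist or weak agonist. Tie1 is a related receptor with no well-established direct angiopoietin binding that modulates Tek, and Ptprb (VE-PTP) removes phosphate from Tek. Angiopoietin-like proteins share the coiled-coil and mostly the fibrinogen-like parts of angiopoietins but do not bind Tek: Angptl2 is a secreted pro-inflammatory factor, and Angptl4 inhibits lipoprotein lipase.

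With EPO, Angpt1 rose 1.94-fold and Angpt4 fell 2.47-fold, and the other 6 members did not pass the test. Called members were therefore 2 of 8, where 23% of all 16522 genes were called (edgeR quasi-likelihood test, Benjamini-Hochberg adjusted p under 0.05): 1 member was higher against 12.9% of all genes, and 1 lower against 10.1%. The share of members called was thus near that of all genes. CPM (gene counts over the scaled library total, in units of 1e+06 counts) did not overlap between groups for 3 members (Angpt1 and Tie1 higher, Angpt4 lower), against 43.8% of all genes. The median log2 fold change was 0.08 over the members and 0.01 over all genes.

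**Figure D1:**
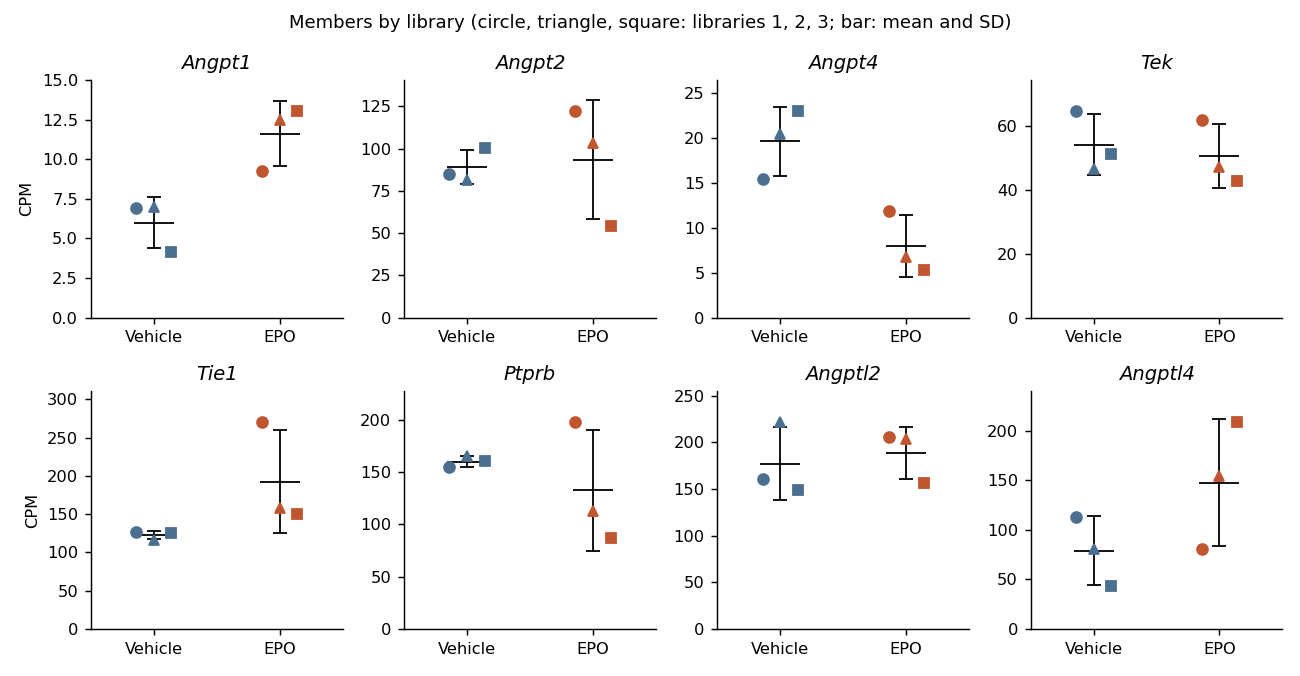
CPM of each member in the 3 Vehicle and 3 EPO libraries, each panel with its own linear axis from 0; points are libraries and bars give the mean and SD. The groups are separate for Angpt1, Angpt4 and Tie1 and overlap for the other 5 members.

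Total counts ran from 23278649 to 38502430 per library, and EPO 1 was the deepest. Apoe had between 176 and 1385 counts in the 6 libraries; without wild-type aorta, not analysed here, these counts do not test the knockout. Of the cells that define the labelled tissue, Myh11, the smooth muscle myosin, was at 4359 to 6195 CPM in Vehicle and 927 to 1825 CPM in EPO, and the endothelial Cdh5 at 149.6 to 174 CPM and 251 to 363 CPM. Pecam1, also endothelial, went the other way, at 520 to 558 CPM in Vehicle and 328 to 396 CPM in EPO. Of the 15 endothelial genes listed, 3 were higher and 1 lower. No marker of the cell type lists was at 0 over a whole group, though Myot of skeletal muscle had only 1, 0 and 3 counts in Vehicle 1, 2 and 3. Several lists moved with the groups. Smooth muscle genes were lower for 9 of 10 (summed level 21517 to 30622 CPM in Vehicle and 7649 to 10198 CPM in EPO), and white adipocyte genes for 7 of 10 (3248 to 7123 and 1929 to 2333 CPM). Skeletal muscle genes were higher for 10 of 10 (7.62 to 15.9 and 329.7 to 2806 CPM). In whole tissue, fewer cells of a type and less RNA per cell cannot be told apart. The part of these cell types in the values below was not tested.

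Among the ligands, Angpt1 (ENSMUSG00000022309, GRCm38 chromosome 15, 42424723 to 42676977) was the rarest in Vehicle. Its level was 6.91, 6.96 and 4.14 CPM in Vehicle 1, 2 and 3 and 9.26, 12.5 and 13.1 CPM in EPO 1, 2 and 3. Every EPO library lay above every Vehicle library. The means were 6.003 ± 1.61 and 11.6 ± 2.06 CPM (SD, n = 3 each), a log2 fold change of 0.95 (SE 0.25, edgeR adjusted p = 0.0344). The call was lost without Vehicle 1, Vehicle 2, Vehicle 3, EPO 2 or EPO 3 (adjusted p between 0.0681 and 0.0886 in edgeR) and held without EPO 1 (0.0263), while the log2 fold change stayed between 0.74 and 1.08 in those fits. Angpt1 shares 737 of its 5205 exon bases with the antisense gene Gm17473, and the strand setting of the counting is not given in the sources used here. Gm17473 itself had 0 counts in each Vehicle library and 1, 5 and 2 counts in EPO 1, 2 and 3.

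Mural cells are a known source of Angpt1, and their markers did not move as one. Of 8 pericyte genes 4 were lower and 2 higher, with a summed level of 3343 to 4048 CPM in Vehicle and 1730 to 2117 CPM in EPO. Abcc9, a potassium channel subunit of mural cells, fell (log2 fold change -1.40, edgeR adjusted p = 0.00454), whereas Pdgfrb, the PDGF receptor shared by mural cells and fibroblasts, rose (1.02, edgeR adjusted p = 0.0106). Pdgfrb and Rgs5 were named after their values were seen. Fibroblast genes were higher for 4 of 10 and lower for 0, with a median log2 fold change of 0.45. Their summed levels were 8153 to 9439 CPM in Vehicle and 29874 to 36801 CPM in EPO. Of these sums, Col1a1 alone, named after its value was seen, held 2899 to 4006 CPM in Vehicle and 22753 to 29393 CPM in EPO. The part of these cells in the Angpt1 values was not tested.

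Angpt4 (ENSMUSG00000027460, chromosome 2, 151911210 to 151945337), a further Tek ligand, went the other way. It stood at 15.4, 20.4 and 23.0 CPM in Vehicle 1, 2 and 3 and at 11.8, 6.76 and 5.26 CPM in EPO 1, 2 and 3. No EPO library reached the lowest Vehicle library. The means were 19.6 ± 3.84 and 7.94 ± 3.42 CPM, a log2 fold change of -1.30 (SE 0.31, edgeR adjusted p = 0.0239). Without Vehicle 2, Vehicle 3, EPO 2 or EPO 3 the adjusted p was 0.0685, 0.0684, 0.0721 and 0.0505, and without Vehicle 1 or EPO 1 it was 0.0432 and 0.00586. EPO 1 and EPO 2 had the highest summed skeletal muscle levels (1168 and 2806 CPM). When both were left out, an alternative added once the data had been seen, EPO 3 was the only EPO library. The log2 fold change was then -1.90 for Angpt4 and 1.13 for Angpt1, without replicates in EPO. EPO 3 itself still had 329.7 CPM of skeletal muscle genes, against at most 15.9 CPM in Vehicle.

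Angpt2 (ENSMUSG00000031465, chromosome 8, 18690263 to 18741562) was the most abundant ligand and showed no difference between groups beyond their spread. Its level was 85.0, 81.4 and 100.4 CPM in Vehicle 1, 2 and 3 and 122, 104 and 54.3 CPM in EPO 1, 2 and 3. The EPO libraries thus lay on both sides of the Vehicle libraries. The log2 fold change was 0.07 with a 95% interval from -0.58 to 0.72 (edgeR adjusted p = 0.88). Angpt2 lies on the opposite strand within Mcph1, and its exons overlap none of that gene's exons. Mcph1 had 8.76 ± 0.818 CPM with saline and 9.96 ± 0.869 CPM with EPO (edgeR adjusted p = 0.445).

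Set per kb of exon, which allows genes to be compared, the mix of ligand transcripts differed between the groups. Angpt2 made up 74.4%, 68.6% and 71.9% of the summed ligand level in Vehicle 1, 2 and 3 and 82.9%, 84.1% and 75.5% in EPO 1, 2 and 3. Angpt4 made up 21.3%, 27.2% and 26.0% in Vehicle and 12.6%, 8.67% and 11.6% in EPO. Angpt1 made up 4.29%, 4.16% and 2.10% in Vehicle and 4.45%, 7.19% and 12.9% in EPO. The groups did not overlap for any of the 3 shares. The gap was narrow for Angpt1, between Vehicle 1 and EPO 1, and for Angpt2, between Vehicle 1 and EPO 3. The shares are parts of 1 sum in each library, so they are not independent of each other. A higher Angpt2 share thus need not mean more Angpt2, whose log2 fold change was 0.07. No share over all genes was computed for such parts. Angpt4 exceeded Angpt1 per kb by 4.98-, 6.54- and 12.4-fold in Vehicle 1, 2 and 3 and by 2.84- and 1.21-fold in EPO 1 and EPO 2, and it was at 0.897 of Angpt1 in EPO 3. The shares were computed after the values were seen and are a description. The ratio of Angpt2 to Angpt1 per kb was 17.2, 16.4 and 33.7 in Vehicle and 18.5, 11.6 and 5.83 in EPO, and the groups overlapped (exact permutation p = 0.3, two-sided; 0.3 after adjustment over 5 ratios).

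**Figure D2:**
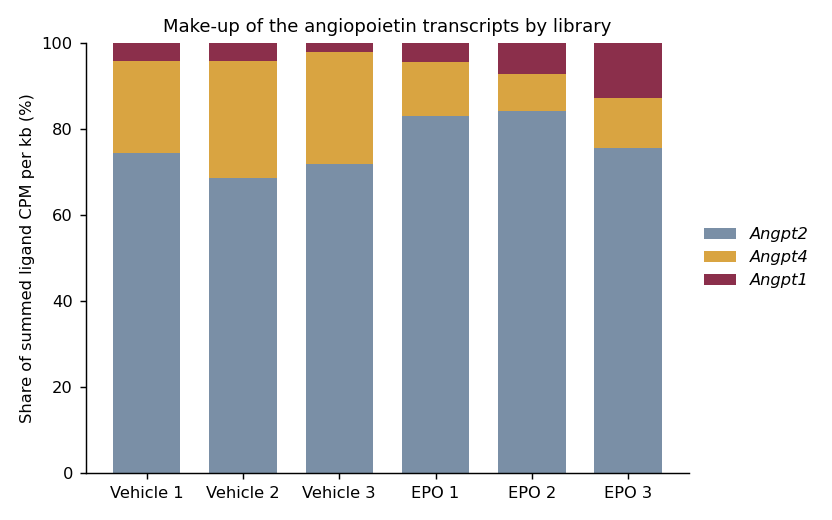
Share of Angpt2, Angpt4 and Angpt1 in the summed CPM per kb of the 3 ligands, as a stacked bar for each library on a linear axis from 0 to 100%. The Angpt4 segment is 21.3% to 27.2% in Vehicle and 8.67% to 12.6% in EPO.

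The receptor genes Tek and Tie1 lie on the same chromosome and are compared here by their promoters as well as by their counts. RefSeq promoter windows of 300 bases on GRCm38.p6 were at hand for 4 of the 8 members (Angpt4, Tek, Tie1 and Angptl2) and for 4 of the 5 other angiopoietin-like genes. Those of the receptor pair are printed because the ratio of their transcripts did not overlap between the groups, and those of Angpt4 and Angptl1 because these genes passed the test in opposite directions. Capitals mark 2 forms of the core motif of ETS factors, the transcription factor family central to endothelial genes. These forms, CCGGAA and AGGAAG, were searched on both strands. Other sequences that hold the GGAA shared by them were not searched and stay in lower case. The windows are chr4:94739039-94739338 (plus strand), chr4:118489800-118490099 (minus strand), chr2:151910957-151911256 (plus strand) and chr1:156838773-156839072 (plus strand). By the gene coordinates used here, the Angptl1 window lies wholly inside its gene and the Tie1 window mostly inside. Sequence upstream of those gene starts was thus hardly searched or not searched.
Tek: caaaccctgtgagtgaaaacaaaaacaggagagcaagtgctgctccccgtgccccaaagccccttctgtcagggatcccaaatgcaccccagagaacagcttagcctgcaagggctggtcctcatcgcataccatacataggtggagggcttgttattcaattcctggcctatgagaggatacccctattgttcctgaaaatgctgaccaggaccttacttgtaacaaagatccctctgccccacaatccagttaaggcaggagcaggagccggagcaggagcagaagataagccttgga
Tie1: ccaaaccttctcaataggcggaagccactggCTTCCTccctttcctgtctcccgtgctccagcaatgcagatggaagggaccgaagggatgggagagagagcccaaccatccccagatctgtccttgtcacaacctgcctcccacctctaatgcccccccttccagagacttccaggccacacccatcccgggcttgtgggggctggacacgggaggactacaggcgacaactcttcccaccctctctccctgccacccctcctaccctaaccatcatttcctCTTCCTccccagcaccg
Angpt4: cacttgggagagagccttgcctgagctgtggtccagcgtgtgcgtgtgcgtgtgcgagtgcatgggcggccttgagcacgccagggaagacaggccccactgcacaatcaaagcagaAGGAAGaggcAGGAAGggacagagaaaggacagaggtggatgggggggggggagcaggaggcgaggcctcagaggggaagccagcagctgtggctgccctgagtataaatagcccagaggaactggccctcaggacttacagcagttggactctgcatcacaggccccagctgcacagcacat
Angptl1: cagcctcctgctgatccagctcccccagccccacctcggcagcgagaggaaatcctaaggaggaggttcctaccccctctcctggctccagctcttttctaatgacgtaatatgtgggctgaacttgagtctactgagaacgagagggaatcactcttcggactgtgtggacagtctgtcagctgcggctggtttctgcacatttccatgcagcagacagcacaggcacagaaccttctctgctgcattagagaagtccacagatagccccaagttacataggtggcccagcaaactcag
The Tie1 and Angpt4 windows held 2 matches each to these forms, and the Tek and Angptl1 windows 0. A window with 0 matches may still hold other forms of the core. The windows not printed held 1 match each for Angptl2, Angptl6 and Angptl7 and 0 for Angptl8. Of 32817 promoter windows of the same length, 45.2% held at least 1 match, so its presence is common. The Tek window held 1 match to the GATA motif AGATAA, found in 11.2% of windows. A match is a run of letters, not a shown binding site.

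Tek (ENSMUSG00000006386, chromosome 4, 94739289 to 94874976), the angiopoietin receptor, did not differ between groups. It was at 64.8, 46.5 and 51.3 CPM in Vehicle 1, 2 and 3 and at 61.9, 47.4 and 42.7 CPM in EPO 1, 2 and 3. The ranges overlapped almost entirely. The log2 fold change was -0.10, with a 95% interval from -0.53 to 0.33 (edgeR adjusted p = 0.736).

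Tie1 (ENSMUSG00000033191, chromosome 4, 118471191 to 118490061) was at 126, 117 and 126 CPM in Vehicle 1, 2 and 3 and at 270.1, 158 and 149.8 CPM in EPO 1, 2 and 3. Every EPO library was above every Vehicle library, and EPO 1 stood far above the other EPO libraries. The means were 123 ± 5.39 and 193 ± 67.3 CPM, and the log2 fold change of 0.65 (SE 0.23) missed the threshold (edgeR adjusted p = 0.0832). DESeq2 called it (adjusted p = 0.0408). Without EPO 1 the log2 fold change was 0.31 and passed (edgeR adjusted p = 0.0474), so the size of the difference depended on that library.

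Ptprb (ENSMUSG00000020154, chromosome 10, 116275523 to 116389535), the phosphatase that acts on Tek, was steady in Vehicle at 155, 165 and 160.5 CPM. In EPO 1, 2 and 3 it was at 198, 113 and 86.9 CPM, which lay on both sides of Vehicle. The log2 fold change was -0.27, with a 95% interval from -0.93 to 0.38 (edgeR adjusted p = 0.521). Without EPO 1 it was -0.69 and passed the test (edgeR adjusted p = 0.0157). With EPO 3 as the only EPO library it was -0.88. Whether Ptprb counts as lower with EPO therefore depended on EPO 1.

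Ratios within a library do not depend on how libraries are scaled. Tie1 relative to Tek, per kb, was 1.86, 2.40 and 2.35 in Vehicle 1, 2 and 3 and 4.18, 3.19 and 3.36 in EPO 1, 2 and 3. All EPO libraries had more Tie1 per Tek than any Vehicle library, a difference in means of 0.70 on the log2 scale (two-sided exact permutation p = 0.1, which is the floor with 3 libraries a side; 0.125 after adjustment over 5 ratios). The difference stayed between 0.58 and 0.78 when single libraries were left out.

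Ptprb relative to the mean log2 level of 15 endothelial genes was 0.828, 0.855 and 0.834 in Vehicle 1, 2 and 3 and 0.646, 0.487 and 0.437 in EPO 1, 2 and 3. The EPO libraries were all lower (difference -0.70 on the log2 scale, exact permutation p = 0.1, adjusted 0.125). Tek relative to the same genes was also lower in all EPO libraries (difference -0.44, exact permutation p = 0.1, adjusted 0.125), and Tie1 was higher (0.25, exact permutation p = 0.1, adjusted 0.125). These differences depended on how the endothelial genes were summarised: with their median in place of their mean, chosen after seeing the data, they were -0.13 for Ptprb, 0.13 for Tek and 0.82 for Tie1. Against each of the 15 genes alone, Ptprb was lower with EPO for 13 and without overlap for 10. Tek was lower against 12 of the 15, without overlap for 8, and Tie1 was higher against 9 and lower against 6. The 15 comparisons of a member share its values and are not independent. No share over all genes was computed for such ratios, while in CPM 43.8% of all genes did not overlap.

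**Figure D3:**
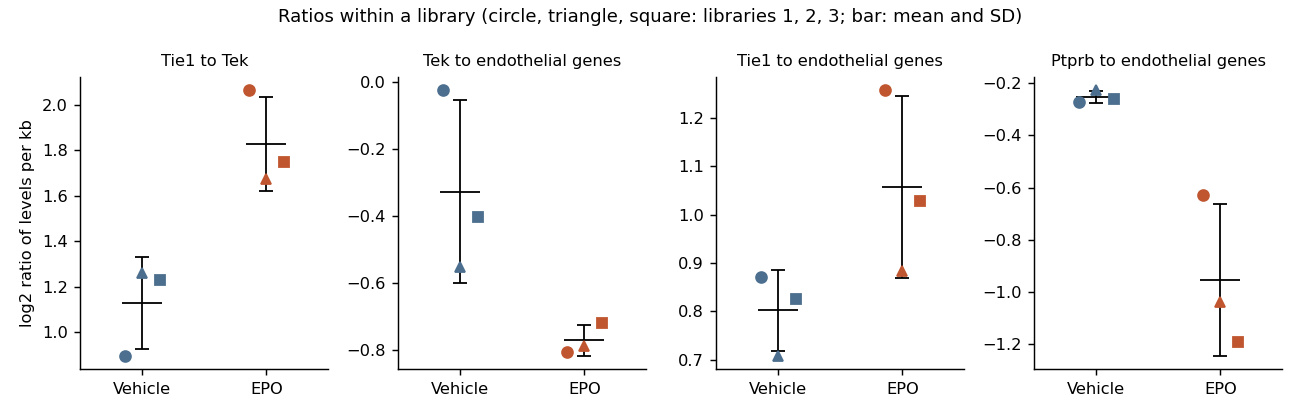
Log2 ratios of levels per kb within each library, for Tie1 to Tek and for Tek, Tie1 and Ptprb to the mean of 15 endothelial genes; points are libraries, bars the mean and SD, and each panel has its own linear axis that does not start at 0. The groups are separate in all 4 panels, with Tie1 to Tek at log2 values up to 1.26 in Vehicle and from 1.67 in EPO.

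The endothelial genes used as the reference did not move as one. Of the 15, 3 were higher (Cdh5, Kdr and Robo4, of which Kdr and Robo4 were named after their values were seen) and 1 lower, with a median log2 fold change of 0.36. Cdh5, endothelial cadherin, had a log2 fold change of 0.87 (edgeR adjusted p = 0.0117) and Pecam1, an adhesion molecule of endothelium, one of -0.57 (edgeR adjusted p = 0.0242). The Pecam1 call was lost in 7 of 14 alternative fits, among them every fit with 1 library left out except that without EPO 1 (edgeR adjusted p up to 0.0827), and that of Cdh5 in 2 of 14. The summed endothelial level was 1816 to 2006 CPM in Vehicle and 2315, 1806 and 1532 CPM in EPO 1, 2 and 3. Of that sum in Vehicle, Pecam1 held 520 to 558 CPM and Vwf, with a log2 fold change of -0.82 (edgeR adjusted p = 0.114), 360 to 519 CPM. The list median of log2 CPM above the Vehicle mean, which weighs genes alike, was -0.045, 0.021 and 0.021 in Vehicle 1, 2 and 3. In EPO 1, 2 and 3 it was 0.76, 0.27 and 0.032. Lymphatic endothelial genes, relevant because Tie1 and Angpt2 also act in lymphatic vessels, were higher for 6 of 7, with summed levels of 126 to 199 CPM in Vehicle and 286 to 435 CPM in EPO. The part of lymphatic cells in the Tie1 values was not tested.

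Of the angiopoietin-like members, Angptl2 (ENSMUSG00000004105, chromosome 2, 33216069 to 33247717) did not differ between groups. It was at 161, 222 and 149 CPM in Vehicle 1, 2 and 3 and at 206, 204 and 157 CPM in EPO 1, 2 and 3, with full overlap. The log2 fold change was 0.09, with a 95% interval from -0.36 to 0.54 (edgeR adjusted p = 0.775).

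Angptl4 (ENSMUSG00000002289, chromosome 17, 33773750 to 33781830) varied widely within both groups. It was at 113, 80.2 and 43.7 CPM in Vehicle 1, 2 and 3 and at 80.2, 154 and 208.7 CPM in EPO 1, 2 and 3. EPO 1 lay among the Vehicle libraries and the other EPO libraries above them. The log2 fold change of 0.90 (SE 0.42) did not pass (edgeR adjusted p = 0.161). Nor did it in any fit with 1 library left out: the values ran from 0.57 without EPO 3 (edgeR adjusted p = 0.388) to 1.23 without Vehicle 1 (0.138), and the lowest adjusted p was 0.0585, without EPO 1. Fat cells are a main source of Angptl4, and the white adipocyte markers in the same libraries had log2 fold changes from -2.13 to -1.09. The part of fat cells in the Angptl4 values was not tested.

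The 5 other angiopoietin-like genes, all tested, held the largest change of the family. Angptl1, a secreted factor reported to restrain vessel growth (ENSMUSG00000033544, chromosome 1, 156838562 to 156861078), was at 2.61, 3.93 and 2.10 CPM in Vehicle 1, 2 and 3 and at 29.5, 47.9 and 19.3 CPM in EPO 1, 2 and 3. All EPO libraries lay well above Vehicle. It rose 11.2-fold (log2 fold change 3.48, SE 0.39, edgeR adjusted p = 0.00262) and stayed called in all 14 alternative fits (log2 fold change 2.75 to 3.76). Its exons share 465 of 2841 bases with the opposite-strand model Gm37802, which had at most 7 counts in a library.

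Angptl7, a secreted relative known from the eye (ENSMUSG00000028989, chromosome 4, 148495183 to 148500460), was at 24.9, 23.0 and 11.6 CPM in Vehicle 1, 2 and 3 and at 8.62, 7.23 and 12.1 CPM in EPO 1, 2 and 3. The groups overlapped, since Vehicle 3 lay below EPO 3. It fell 2.13-fold (log2 fold change -1.09, SE 0.32, edgeR adjusted p = 0.0458), and the call was lost without Vehicle 1, Vehicle 2, EPO 1 or EPO 2 (adjusted p between 0.0936 and 0.147 in edgeR) and with limma-voom (0.0717). With EPO 3 as the only EPO library, its log2 fold change was -0.71. Angptl6 was at 1.799 ± 0.361 and 1.36 ± 0.629 CPM in Vehicle and EPO. Angptl8, which takes part in lipase inhibition, was at 3.62 ± 0.599 and 2.59 ± 1.94 CPM in Vehicle and EPO. Neither passed (edgeR adjusted p = 0.503 and 0.52), but without EPO 1 the log2 fold change of Angptl8 went from -0.48 to -1.31 and passed (adjusted p = 0.0175), and without EPO 2 or EPO 3 it was -0.20 and -0.19.

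**Figure D4:**
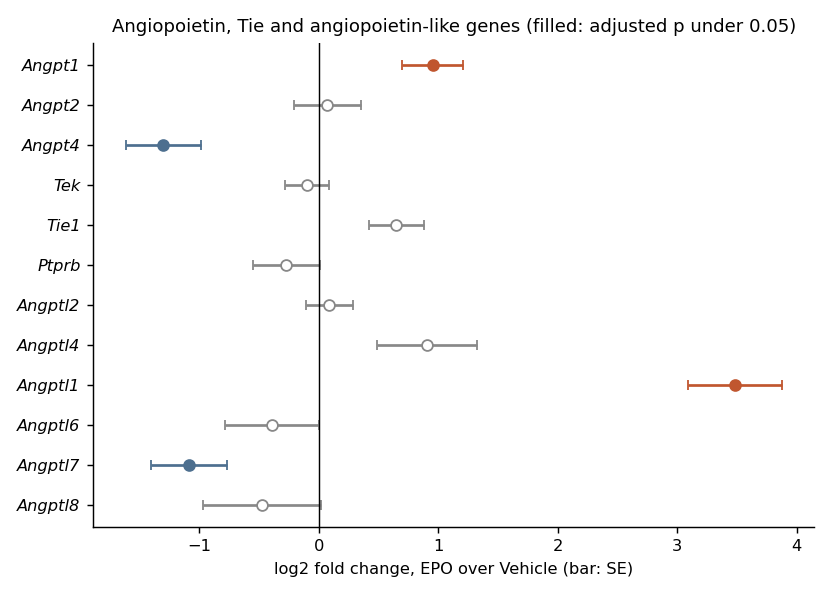
Log2 fold change of EPO over Vehicle with its SE for the 8 members (top) and the other angiopoietin-like genes with a Vehicle mean above 1 CPM (bottom); filled points have an edgeR adjusted p under 0.05. Angpt1 and Angptl1 are filled above 0, Angpt4 and Angptl7 below 0, and the other 8 are open.

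Levels of the members were ordered per kb of exon. In Vehicle the order was Angptl2 (28.2 ± 6.19 CPM per kb), Tie1 (24.97 ± 1.10), Angpt2 (24.1 ± 2.73), Angptl4 (22.3 ± 9.80), Ptprb (12.0 ± 0.397), Tek (11.5 ± 2.01), Angpt4 (8.40 ± 1.65) and Angpt1 (1.153 ± 0.31). Neighbours in that order overlapped between libraries down to Tek, while Angpt4 lay below Tek and Angpt1 below Angpt4 in separate ranges. In EPO the order was Angptl4 (41.7 ± 18.2 CPM per kb), Tie1 (39.2 ± 13.7), Angptl2 (30.0 ± 4.41), Angpt2 (25.3 ± 9.54), Tek (10.7 ± 2.12), Ptprb (9.94 ± 4.36), Angpt4 (3.40 ± 1.47) and Angpt1 (2.23 ± 0.395). There the ranges of Angpt2 and Tek were separate, as were those of Ptprb and Angpt4, and Angpt1 and Angpt4 overlapped. Lengths were those of all annotated exons of a gene, so transcripts that use fewer exons are understated.

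The 3 EPO libraries differed in the same members. EPO 1 held the highest EPO value for 6 of the 8 members (Angpt2, Angpt4, Tek, Tie1, Ptprb and Angptl2) and the lowest for the other 2 (Angpt1 and Angptl4), and EPO 3 was the reverse for all 8. The summed endothelial level was highest in EPO 1 as well, as was that of macrophage genes (9701, 4636 and 4183 CPM in EPO 1, 2 and 3). Over the 6 libraries, the 3 tested genes whose centred log2 CPM lay closest to Tek were Sh3bp4, Tanc2 and Ring1, with root mean square differences of 0.049, 0.060 and 0.063. Closest to Tie1 were Uqcc2, Cnpy2 and Mcrip1, at 0.044, 0.051 and 0.061, and each of these was also highest in EPO 1. The candidates were 11303 genes with a mean of at least 5 CPM.

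Downstream of the receptors, Tie signalling genes were called about as often as genes in general. Of 20 tested of 22, 2 were higher and 2 lower, with a median log2 fold change of 0.06. Dok1, an adaptor related to the Tek-binding Dok2, rose 1.93-fold (39.8 ± 2.68 to 77.0 ± 7.73 CPM, edgeR adjusted p = 0.00331). Dok2 itself, named after its value was seen, had a log2 fold change of 0.10 and overlapping groups (edgeR adjusted p = 0.674). Pak1, a kinase of cell migration, rose 2.65-fold (9.27 ± 1.99 to 24.6 ± 2.36 CPM, edgeR adjusted p = 0.00333). Grb14, an adaptor that binds activated receptor kinases, fell 2.14-fold (52.1 ± 8.90 to 24.4 ± 3.62 CPM, edgeR adjusted p = 0.00532). Foxo1, the transcription factor that Tek signalling restrains and that drives Angpt2, had a log2 fold change of -0.44 (edgeR adjusted p = 0.0543), and Svep1, a secreted ligand reported for Tie1, one of -0.28 (0.123); both were chosen after their values were seen.

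Endothelial tip cell genes, which mark sprouting vessel ends where Angpt2 is also made, were higher for 7 of 12 and lower for 0. Of all genes, 12.9% were higher and 10.1% lower. The median log2 fold change of the list was 1.44. Among the 5 not called were Esm1 and Pdgfb (edgeR adjusted p = 0.097 each), named after their values were seen. Nid2, a basement membrane protein, rose 6.15-fold (13.1 ± 1.05 to 80.8 ± 8.07 CPM, edgeR adjusted p = 0.000433). Unc5b, a netrin receptor of endothelium, rose 3.23-fold (60.4 ± 9.32 to 195 ± 19.6 CPM, edgeR adjusted p = 0.00177), and Pgf, placental growth factor, 3.25-fold (edgeR adjusted p = 0.00289). The other higher genes were Apln, Cxcr4, Dll4 and Plaur, named after their values were seen. Several of these genes are also made by fibroblasts, smooth muscle or leukocytes, and macrophage genes were higher for 2 of 10 (summed 2005 to 3983 CPM in Vehicle and 4183 to 9701 CPM in EPO). The part of those cells was not tested.

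Around Angptl4, genes of lipoprotein lipase handling were followed as well. Of 9 tested of 12, 1 was higher and 1 lower, a share close to the 23% of all genes, with a median log2 fold change of 0.02. Furin, a protease that cleaves Angptl4 and lipase, rose 1.36-fold (189 ± 11.3 to 257 ± 15.4 CPM, edgeR adjusted p = 0.038), a call that 9 of its 14 alternative fits lost. Apoc3, an apolipoprotein that inhibits lipase, fell from 0.60 ± 0.172 to 0.121 ± 0.0188 CPM (edgeR adjusted p = 0.0103). Its counts were low, at 10, 20 and 17 in Vehicle 1, 2 and 3 and 5, 3 and 4 in EPO 1, 2 and 3. Pcsk6, a furin relative, had a log2 fold change of -0.45 (adjusted p = 0.138). Lpl, the lipase itself, had 1098, 1879 and 835 CPM in Vehicle 1, 2 and 3 and 1076, 936 and 493 CPM in EPO 1, 2 and 3 (log2 fold change -0.61, edgeR adjusted p = 0.288), and was chosen after its value was seen.

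PPAR targets, to which Angptl4 belongs, were higher for 2 of 15 and lower for 2, a share close to the 23% of all genes. Their median log2 fold change was -0.73. Per library, the list median of log2 CPM above the Vehicle mean was 0.18, 0.44 and -0.64 in Vehicle 1, 2 and 3. In EPO 1, 2 and 3 it was -0.69, -0.22 and -0.69, so the groups overlapped. Creb3l3 rose 4.21-fold (1.13 ± 0.368 to 4.80 ± 1.83 CPM, edgeR adjusted p = 0.0101). Ehhadh, an enzyme of peroxisomal fat oxidation, fell (68.6 ± 43.5 to 20.0 ± 3.88 CPM, edgeR adjusted p = 0.0432). Ucp2 was the other higher gene (log2 fold change 0.99, edgeR adjusted p = 0.0494), picked for mention from its value. The call of Ehhadh was lost in 5 of the 6 fits with 1 library left out (edgeR adjusted p up to 0.131). Brown adipocyte genes, which share much of this programme, were lower for 2 of 6, with summed levels of 615 to 1996 CPM in Vehicle and 389 to 845 CPM in EPO. Their part in these values was not tested.

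Of 6 other binding partners, integrin genes for angiopoietins and Pirb for Angptl2, 1 was higher and 0 lower. Pirb, a leukocyte receptor, rose 2.03-fold (47.7 ± 12.5 to 96.9 ± 9.95 CPM, edgeR adjusted p = 0.0132). Itgav and Itgb1 had log2 fold changes of 0.36 and -0.38 and did not pass (edgeR adjusted p = 0.0568 and 0.188). Pirb belongs to myeloid cells, whose macrophage markers had a median log2 fold change of 1.17, with 2 of 10 called higher and 0 lower. The part of these cells in the Pirb values was not tested.

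**Figure D5:**
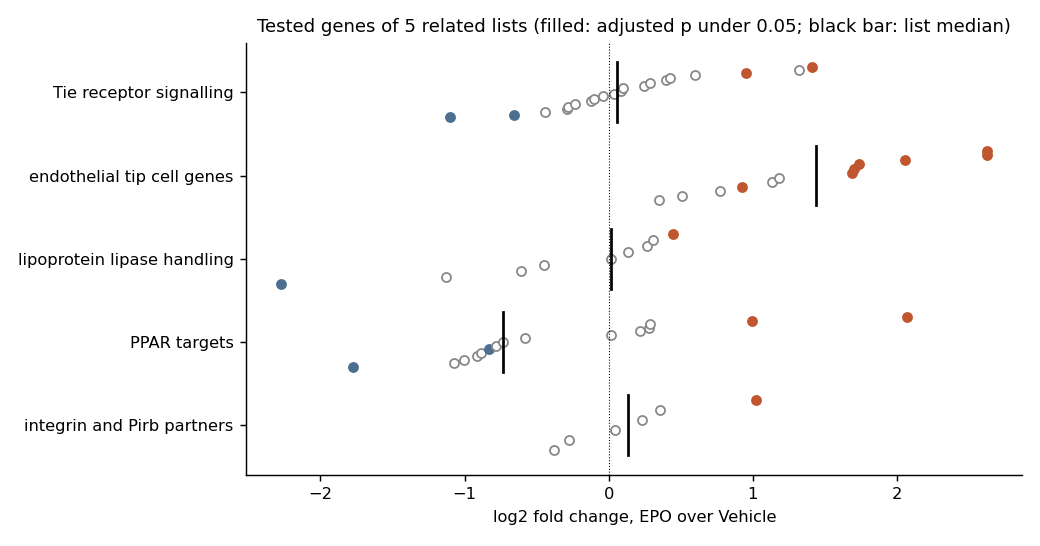
Log2 fold change of EPO over Vehicle for every tested gene of 5 related lists, filled where the edgeR adjusted p is under 0.05; black bars are list medians. Tip cell genes all lie above 0 with a median of 1.44, whereas the median of Tie signalling genes is 0.06 and that of PPAR targets -0.73.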

How the data were processed

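RNA of the whole aorta was sequenced in 6 libraries, 3 per group. The authors deposited a table of whole-number counts per Ensembl gene; per the submitters' processing notes, CASAVA 1.8, TopHat2 2.0.6 and the mm10 build were used. For the counting tool and its strand setting, nothing is stated: not given in the sources used here. From the deposited counts, 16522 genes were kept by edgeR 4.0.16 (filterByExpr), scaled by TMM and tested with its quasi-likelihood test, with Benjamini-Hochberg adjustment over those genes. CPM used the TMM-scaled library size; CPM per kb used the union of exons in GENCODE M21 (GRCm38). Log2 ratios used a prior count of 2 and two-sided exact permutation tests, in which 3 against 3 cannot go below 0.1. DESeq2 1.42.0 and limma 3.58.1 (voom), other scalings and filters, a replicate block and the leaving out of each library were alternatives. The fit without EPO 1 and EPO 2, the endothelial median and the ligand shares were added after seeing the data. That fit is among the 14 alternative fits, but it leaves EPO 3 as the only EPO library and so has no replicates in EPO. Members and gene lists were chosen with earlier results of these data known. Named were all angiopoietin, Tie and angiopoietin-like genes, up to 3 genes of smallest p per pathway list, the first 3 of each cell type list, the 3 nearest genes to Tek and Tie1, and overlapping genes; a few genes that this rule names are not reported here. Promoter windows came from RefSeq (GRCm38.p6).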

Additional observations from a re-analysis of the deposited data

How the results depend on the processing

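With single libraries left out, between 1635 (without Vehicle 1) and 4281 (without EPO 1) genes were called, against 3804 in all libraries. Members called ranged from 0 to 2 in each direction, other angiopoietin-like genes from 1 to 2, Tie signalling genes from 3 to 5, lipase handling genes from 1 to 2, PPAR targets from 1 to 6, and integrin and Pirb genes from 1 to 2. Without EPO 1 and EPO 2 together, 1548 genes were called, with 0 members higher, 2 members lower, 1 other angiopoietin-like gene, 2 Tie signalling genes, 0 lipase handling genes, 1 PPAR target and 0 integrin and Pirb genes. DESeq2 called 2 members higher, 7 Tie signalling genes, 8 PPAR targets and 2 integrin and Pirb genes. Without the filter 8 PPAR targets and 1 lipase handling gene were called; library size alone and a minimum of 1 CPM in 3 libraries each gave 1 lipase handling gene. With limma-voom, 1 other angiopoietin-like gene and 2 PPAR targets were called. The cause of these changes was not tested.

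Replicate numbers occur in both groups, but deviations of same-numbered libraries correlated at -0.0088, -0.0098 and 0.127, so the numbers were not taken as pairs, and only EPO 3 correlated best with its own number. With the replicate block, 2884 genes were called, with 0 members higher, 0 members lower, 1 other angiopoietin-like gene, 1 lipase handling gene and 2 PPAR targets; the adjusted p was 0.0688 for Angpt1, 0.055 for Angpt4 and 0.112 for Angptl7.

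The log2 fold change of Angpt2 turned to -0.0032 with limma-voom, -0.0083 without Vehicle 2, -0.18 without EPO 1, -0.0057 without EPO 2 and -0.71 without EPO 1 and EPO 2. That of Tek turned to 0.018 without Vehicle 1 and 0.013 without EPO 3, and that of Angptl2 to -0.0056 without Vehicle 1, -0.025 without Vehicle 3 and -0.18 without EPO 1 and EPO 2. Sh3bp4 turned to 0.049 without Vehicle 1 and 0.045 without EPO 3, and Tanc2 to 0.072, 0.026 and 0.099 without Vehicle 1, EPO 2 and EPO 3. Tek relative to endothelial genes turned to 0.13 with their median. Over single libraries left out, the highest value of Angpt2 was 0.35 and of Angptl2 0.26, and the lowest of Tek was -0.28 and of Sh3bp4 -0.19. None of these 5 genes passed the test with all libraries in. Of 112 alternative values of the 8 members, 86 kept direction and side of the threshold.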
